A study of Mus musculus with 9 samples.

Results

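Complement genes were described in dissociated mouse thyroid, over every cell label that the authors deposited and over 3 antibody treatments. The 9 genes are C1qa, C1qb, C1qc, C1ra, C3, C4b, Cfd, Serping1 and Cd55, taken by name out of 52636 genes in the count table, and all 9 matched a single Ensembl gene. The 10186 cells came from 9 droplet libraries, each made from the pooled thyroids of 6 male C57BL/6 mice. The mice were 10 to 12 weeks old according to the design text and 10 to 14 weeks old according to the treatment protocol. RW mice received 40 mg/kg of an anti-ragweed antibody, which has no target in the mouse and served as control. aJ1aJ2 mice received antibodies that block the Notch ligands Jag1 and Jag2, at 20 mg/kg each. aN1aN2 mice received antibodies that block the receptors Notch1, at 5 mg/kg, and Notch2, at 10 mg/kg. All were injected once and their thyroids were taken after 7 days. Each group has 3 libraries, so n counts pools of mice. The libraries' internal numbers fall into 3 ranges: RW 3 and aJ1aJ2 1 share one, RW 1, RW 2, aJ1aJ2 3 and aJ1aJ2 4 share another, and the 3 aN1aN2 libraries have one to themselves. What a range stands for is not stated, and aN1aN2 treatment cannot be told apart from its range.

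Complement is a cascade of blood and tissue proteins that tags and lyses targets. In the classical route the recognition protein C1q, built from the products of C1qa, C1qb and C1qc, binds a surface and activates the proteases C1r and C1s, which cut C4 and C2 to form an enzyme that cleaves C3. The alternative route amplifies C3 cleavage through factor B, which factor D, the product of Cfd, cuts. C1 inhibitor, the product of Serping1, inactivates C1r and C1s, and the membrane protein CD55 takes C3-cleaving enzymes apart. Resident macrophages are known as the main tissue source of C1q, fibroblasts as a source of C3 and C4, and adipocytes as the main source of factor D.

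The C1q genes lie side by side on the minus strand of mouse chromosome 4, from position 136880129 to 136898803 of GRCm38, a stretch of 18.7 kb. C1ra lies on the plus strand of chromosome 6 from 124512405 to 124523443. C3 lies on the minus strand of chromosome 17 from 57203970 to 57228136, and C4b on the same chromosome and strand from 34728380 to 34743882. Cfd lies on the plus strand of chromosome 10 from 79890853 to 79892655, Serping1 on the minus strand of chromosome 2 from 84765387 to 84775444, and Cd55 on the minus strand of chromosome 1 from 130439027 to 130462744. All 9 are protein-coding in GENCODE M21. Near-identical copies had few counts: C4a had 27 unique molecular identifiers (UMIs, the counted molecules) in all cells, C1rb 5 and Cd55b 0. How reads common to a gene and its copy were counted is not given in the sources used here, so the split between C4b and C4a, C1ra and C1rb, and Cd55 and Cd55b is uncertain.

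RefSeq promoter sequences (GRCm38.p6) were at hand for 6 of the 9 genes. Shown here are C1qb and C1qc, which moved together in the comparisons below, and Cd55, which was called lower in F after receptor blockade. Each run is the minus strand read 5′ to 3′, ends at the base before the start site or before the first annotated exon, and has any matched motif in capitals. The windows are chr4:136886201-136886450 for C1qb, chr4:136893066-136893164 for C1qc and chr1:130462745-130462994 for Cd55.
C1qb: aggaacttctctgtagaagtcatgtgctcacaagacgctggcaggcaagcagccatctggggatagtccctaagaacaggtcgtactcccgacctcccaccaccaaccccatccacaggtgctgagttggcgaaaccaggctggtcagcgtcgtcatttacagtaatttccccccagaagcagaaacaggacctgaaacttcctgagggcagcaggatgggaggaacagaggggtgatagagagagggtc
C1qc: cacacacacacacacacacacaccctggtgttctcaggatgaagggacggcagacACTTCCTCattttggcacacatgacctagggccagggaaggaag
Cd55: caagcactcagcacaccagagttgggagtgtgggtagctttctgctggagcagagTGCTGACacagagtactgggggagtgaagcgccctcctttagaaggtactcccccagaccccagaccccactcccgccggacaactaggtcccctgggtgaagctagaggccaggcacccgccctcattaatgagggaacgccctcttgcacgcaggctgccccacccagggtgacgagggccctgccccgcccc

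Both strands were searched for 4 motifs: TGGGAA, the core bound by RBPJ, the DNA-binding partner of Notch; GAGGAAGT, bound by the myeloid factor PU.1; TGCTGAC, the core bound by MAF factors; and the interferon response element. C1qc held the PU.1 letters in reverse, marked as ACTTCCTC, which 0.776% of all 32851 RefSeq promoters hold in a 99-base window at the same place. Cd55 held the MAF core, which 3.81% of all promoters hold within 250 bases. The C1qb window held none of the 4, and the RBPJ letters, present in 21.6% of all 250-base windows, were in none of the 3 sequences shown. These are matches of letters in short windows and say nothing of binding.

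Library totals ran from 3013324 to 11880793 UMIs over 583 to 1805 cells. The labels were checked against marker lists as summed CPM, a gene's UMI count per 1000000 UMIs. Macrophage markers summed to 10927 CPM in M and to at most 1204 in any other label. Fibroblast markers summed to 35895 CPM in F and to at most 2365 elsewhere, in S, which Schwann cell markers led at 19305. Endothelial markers led EC1, EC2, EC3 and EC4, thyrocyte markers led Th1, mural markers led SM, and T and NK cell markers led T1. Th3 cells also carried the C cell gene Calca, at 27510 CPM, while the second C cell marker, Calcb, stood at 1.32 CPM. Doublets were not called, and 15 cell barcodes occurred in more than 1 library. Levels below are CPM of a sample's summed cells of 1 label, given for sums of at least 20 cells unless said otherwise. Counts are not per gene length, so the levels of different genes served only to choose which listed genes to name.

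In control thyroid C1qa, C1qb and C1qc were highest in M, and C1ra, C3, C4b, Serping1 and Cd55 were highest in F, with C4b not apart from S. Cfd was highest in EC2, at 68.8 CPM, from 1 of 2 RW libraries. The order was taken over the 12 labels with sums from at least 2 RW libraries, and neighbours count as apart only where the RW ranges do not overlap.

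**Figure D1:**
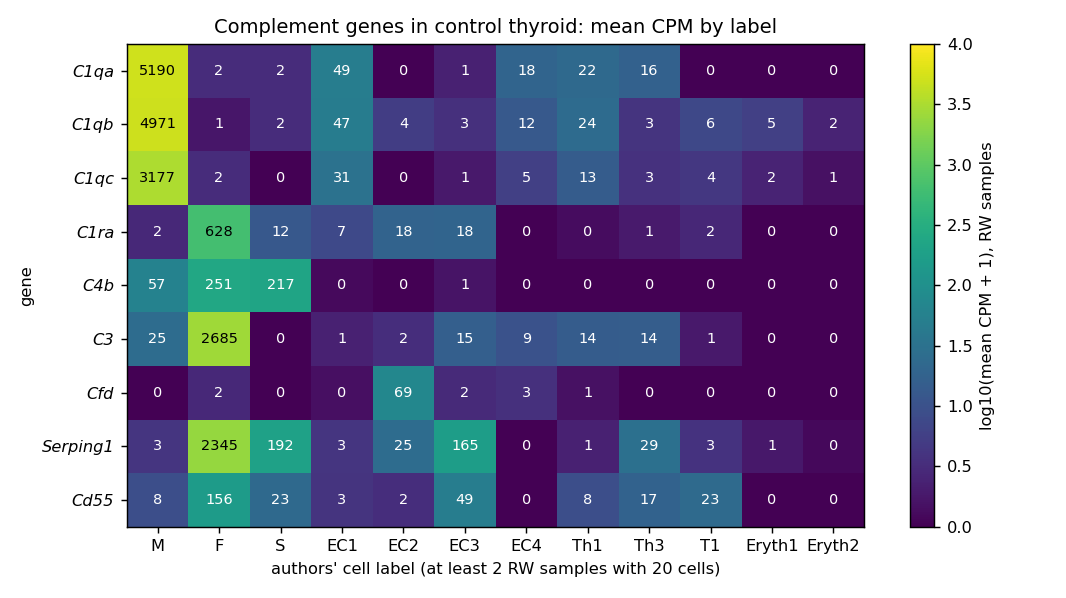
Mean CPM of each complement gene (rows) in each of the authors' labels (columns) over the RW samples, with colour on a log10(CPM + 1) scale and the rounded mean CPM in each cell. M holds the high values of C1qa (5190), C1qb (4971) and C1qc (3177), and F those of C1ra (628), C3 (2685), Serping1 (2345) and Cd55 (156), while C4b is close in F (251) and S (217) and Cfd is highest in EC2 (68.8).

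C1qa, whose product is the A chain of C1q, stood at 6272, 3495 and 5803 CPM in the M cells of RW 1, 2 and 3. RW 2 was the lowest of the 3 for C1qa, and also for C1qb, at 5704, 3110 and 6098 CPM, and for C1qc, at 3877, 2470 and 3186 CPM. All 3 genes were apart from the next label, EC1, by a wide margin: C1qa averaged 5190 ± 1487 CPM (SD, n = 3) in M and 48.8 ± 23.4 in EC1. Below that the RW ranges ran into each other, with C1qa at 22.4 ± 12.7 CPM in Th1. A C1qa UMI was found in 85.1% of 188 RW cells of M (exact binomial interval 79.2 to 89.9%, counting error only, as for the other intervals). It was found in 9.88% of Th1 cells (7.22 to 13.1%), whose median depth was 17624 UMIs. In EC1 the share was 4.39% (2.96 to 6.24%). In F, a label whose cells were deeper than those of EC1, at a median of 7665 against 4813 UMIs, it was 1.67% (0.202 to 5.89%). The EC1 and F intervals overlap. After thinning every cell to 1000 UMIs the shares were 84.9% in M, 1.36% in EC1, 0.471% in Th1 and 0% in F. Thinning left out 95 of the 188 M cells, whose median was only 951 UMIs.

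Of 18034 UMIs of the 3 C1q genes in all cells, 86.0% were in the 378 cells labelled M. The other 2525 UMIs were spread unevenly: 74 of 9808 cells outside M had at least 5 C1q UMIs and together held 87.4% of them. In EC1 there were 25 such cells, 18 from RW, 7 from aJ1aJ2 and none from aN1aN2. Their median depth was 12715 UMIs against 3906 in EC1 cells with no C1q UMI, and 88.0% of them had a macrophage-marker UMI against 11.9%. They also had a median of 138 endothelial-marker UMIs, against 48 in EC1 cells with no C1q UMI. Th1 held 42 such cells, at a median depth of 42150 UMIs against 11687, of which 83.3% had a macrophage-marker UMI against 7.55%. Chain proportions were taken over all cells of a label. RW cells held 0.635 C1qc UMIs per C1qa UMI in M (interval 0.599 to 0.672), 0.648 in EC1 (0.534 to 0.786) and 0.615 in Th1 (0.507 to 0.744). Their C1qb per C1qa was 0.941 in M (0.893 to 0.991), 0.956 in EC1 (0.804 to 1.14) and 1.08 in Th1 (0.914 to 1.27). For aJ1aJ2, C1qc per C1qa was 0.616 in M (0.579 to 0.656), 0.432 in EC1 (0.238 to 0.755) and 0.565 in Th1 (0.457 to 0.697). For aN1aN2 it was 0.673 in M (0.579 to 0.780) and 0.393 in Th1 (0.176 to 0.814).

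After receptor blockade the label that carries C1q held fewer cells, while the C1q level of the cells that were there overlapped the control range. M made up 4.25, 5.85 and 5.52% of the cells of RW 1, 2 and 3, and 6.17, 3.99 and 3.84% of aJ1aJ2 1, 3 and 4. It made up 0.860, 0.339 and 1.46% of aN1aN2 1, 2 and 3, all below every other library. The mean share was 5.20% ± 0.845 in RW and 0.885% ± 0.559 in aN1aN2 (SD, n = 3 each), with an exact two-sided permutation p of 0.1, the smallest that 3 against 3 allows, and 0.15 adjusted over the 3 contrasts. aJ1aJ2 against RW gave an exact p of 0.7. The floor of the table was 500 UMIs per cell. M cells had medians of 1232, 924 and 805 UMIs in RW 1, 2 and 3, and the few of aN1aN2 1, 2 and 3 were deeper, at 2034, 1370 and 4334. Among cells with at least 1000 UMIs the aN1aN2 share was still lower than RW, by 2.05 percentage points in place of 4.32.

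The summed level of the 3 C1q genes over all cells of a library was also lowest in aN1aN2. It was 287, 432 and 306 CPM in RW 1, 2 and 3, 488, 250 and 323 CPM in aJ1aJ2 1, 3 and 4, and 101, 18.04 and 224 CPM in aN1aN2 1, 2 and 3. Every aN1aN2 library was below every other one. Within M, C1qa stood at 4632, 3102 and 5288 CPM in aJ1aJ2 1, 3 and 4. In the 9, 3 and 10 M cells of aN1aN2 1, 2 and 3 it stood at 6983, 5083 and 3531 CPM, inside the RW range apart from aN1aN2 1, which was above it. These sums were under 20 cells and were not tested. A UMI of a dendritic cell marker was found in 4 of 53, 10 of 77 and 1 of 58 M cells of RW 1, 2 and 3, and in 5 of 9, 0 of 3 and 4 of 10 of aN1aN2 1, 2 and 3, and its part in the result was not tested. For aJ1aJ2 against RW, edgeR gave log2 differences in M of -0.32 ± 0.30 for C1qa, -0.34 ± 0.32 for C1qb and -0.28 ± 0.28 for C1qc (SE), each with an adjusted p of 0.9996. No gene was called in M by edgeR, with 77 of 2097 at an unadjusted p under 0.05, nor by DESeq2, with 33.

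**Figure D2:**
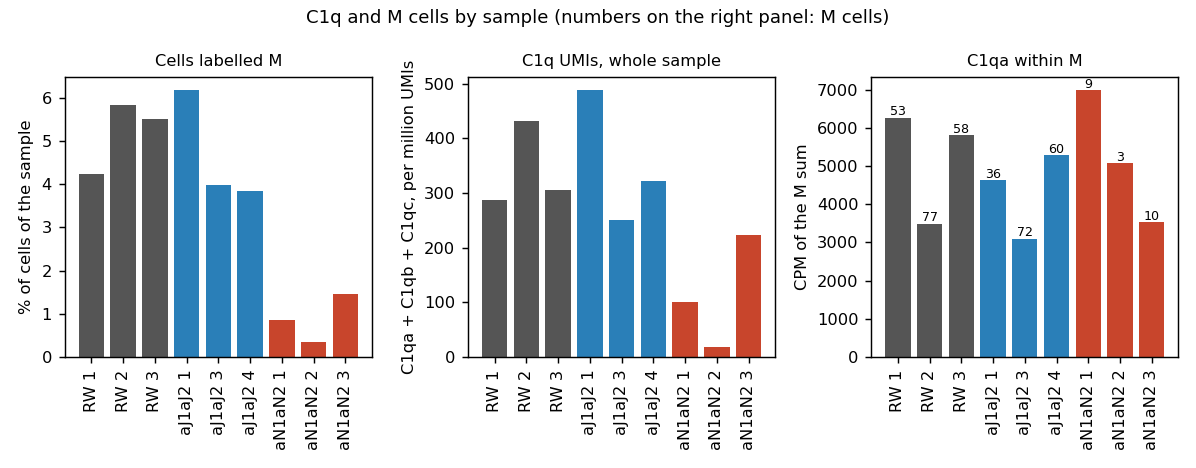
Bars give, per library and coloured by treatment, the percentage of cells labelled M (left), the C1qa, C1qb and C1qc CPM of the whole library (middle) and the C1qa CPM of the summed M cells, with the number of M cells above each bar (right). The 3 aN1aN2 libraries are the lowest in the left and middle panels, while on the right they run from 3531 to 6983 CPM over at most 10 cells each.

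The low amount of C1q outside M differed too in EC1. For aJ1aJ2 against RW, 3 of the 23 tested pairs of a member and a label were called at an adjusted p under 0.05, all lower, against 0.662% of all tested pairs of any gene and a label, or 0.329% called lower. The 3 were C1qa, C1qb and C1qc in EC1, where 1.43% of all 9369 genes were called. The filter on low counts asked for 7.48 CPM there in at least 3 libraries of any group. C1qa and C1qb reached it in all 3 libraries of RW and of aJ1aJ2. C1qc reached it in RW alone, so its call is given as a description, as is every later call where no library of the lower group reached the cutoff. C1qa in EC1 stood at 39.7, 31.4 and 75.5 CPM in RW 1, 2 and 3, and at 16.3, 13.3 and 8.61 CPM in aJ1aJ2 1, 3 and 4. C1qb stood at 39.7, 28.4 and 71.9 CPM against 17.97, 15.2 and 9.93, and C1qc at 26.0, 18.7 and 49.7 CPM against 4.90, 5.08 and 5.30. The groups did not overlap for any of the 3, and RW 3 was the highest library for each. Within the shared number ranges aJ1aJ2 was lower as well: 16.3 against 75.5 CPM of C1qa for aJ1aJ2 1 and RW 3, and 13.3 and 8.61 against 39.7 and 31.4 for the other range.

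By edgeR's quasi-likelihood test the log2 differences were -2.09 ± 0.33 for C1qa (adjusted p = 0.0014), -1.85 ± 0.32 for C1qb (adjusted p = 0.00361) and -2.67 ± 0.40 for C1qc (adjusted p = 0.00101). Without aJ1aJ2 4 the C1qb difference was -1.60 with an adjusted p of 0.0655. Much of this signal sat in the cells with macrophage markers. In RW, 27 of 661 EC1 cells had at least 3 macrophage-marker UMIs and held 234 of the 273 C1qa UMIs of that label. In aJ1aJ2, 18 of 678 cells did, with 26 of 44 UMIs, and in aN1aN2, 3 of 264 cells, with 0 of 1. When these cells were left out, a choice made after seeing the data, none of the C1q genes passed the filter on low counts in EC1 and no member was called in this contrast. Summed macrophage markers in EC1 ran from 40.4 to 74.1 CPM in RW, from 41.7 to 82.5 in aJ1aJ2 and from 27.4 to 40.0 in aN1aN2. In the aN1aN2 libraries 6 of the 8 markers, Cd68 and Csf1r among them, were at 0.

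For aN1aN2 against RW, 7 of 18 tested pairs were called, 2 higher and 5 lower, against 19.9% of all tested pairs of a gene and a label, 10% higher and 9.87% lower. EC1 cells of aN1aN2 held 1 UMI of each C1q gene, all in aN1aN2 3. The C1qa count per UMI was 60.1 times higher in RW than in aN1aN2, with a counting interval from 10.7 to 2381 that covers counting error only. It was 57.4 times higher for C1qb (10.2 to 2277) and 38.9 times higher for C1qc (6.90 to 1547). edgeR called all 3, in a label where 17.8% of genes were called. C1qa and C1qb passed the filter through RW and aJ1aJ2 and C1qc through RW alone, so these calls, and their part in the 7, are given as a description.

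For aN1aN2 against aJ1aJ2, 4 of 19 pairs were called, 1 higher and 3 lower, against 12.9% of all tested pairs, 6.4% higher and 6.52% lower. In EC1, 13.5% of genes were called. C1qa in EC1 (13.4 times lower, counting interval 2.29 to 542, edgeR adjusted p = 0.0417) and C1qb (15.3 times lower, 2.62 to 614, adjusted p = 0.0278) were called, and C1qc was not (adjusted p = 0.264). Either call was lost without aN1aN2 1 (adjusted p = 0.183 and 0.142) or without aN1aN2 2 (0.154 and 0.119), and that of C1qa also without aN1aN2 3, aJ1aJ2 1 or aJ1aJ2 3 (0.0587, 0.0584 and 0.0725). These genes too passed the filter only through the other groups, so both calls are given as a description. The 3 contrasts share libraries and are not independent.

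In Th1, thyrocytes, the C1q level varied widely between libraries of a group. C1qa stood at 16.2, 14.0 and 37.1 CPM in RW 1, 2 and 3, at 78.8, 22.3 and 2.40 in aJ1aJ2 1, 3 and 4, and at 1.10, 0 and 29.8 in aN1aN2 1, 2 and 3. The ranges overlapped in each contrast, and no C1q gene was called in Th1, where 0.612% of genes were called for aJ1aJ2 against RW. For aN1aN2 calls appeared without single libraries and under other settings. In the main fit 34.4% of all Th1 genes were called for aN1aN2 against RW and 22.3% against aJ1aJ2. Without aN1aN2 3, edgeR called C1qa, C1qb and C1qc lower than in aJ1aJ2 (adjusted p = 0.0246, 0.0156 and 0.0207) and C1qc lower than in RW (adjusted p = 0.0207). Without aJ1aJ2 4 the 3 genes were also called lower than in aJ1aJ2 (adjusted p = 0.0389, 0.0171 and 0.0267), and C1qc without aJ1aJ2 3 (adjusted p = 0.047). With no filter on low counts the 3 were called against aJ1aJ2, and C1qc against RW. C1qb was called against aJ1aJ2 without macrophage-marker cells (adjusted p = 0.0193) and C1qc against RW with only the 2 groups fitted (adjusted p = 0.0211).

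**Figure D3:**
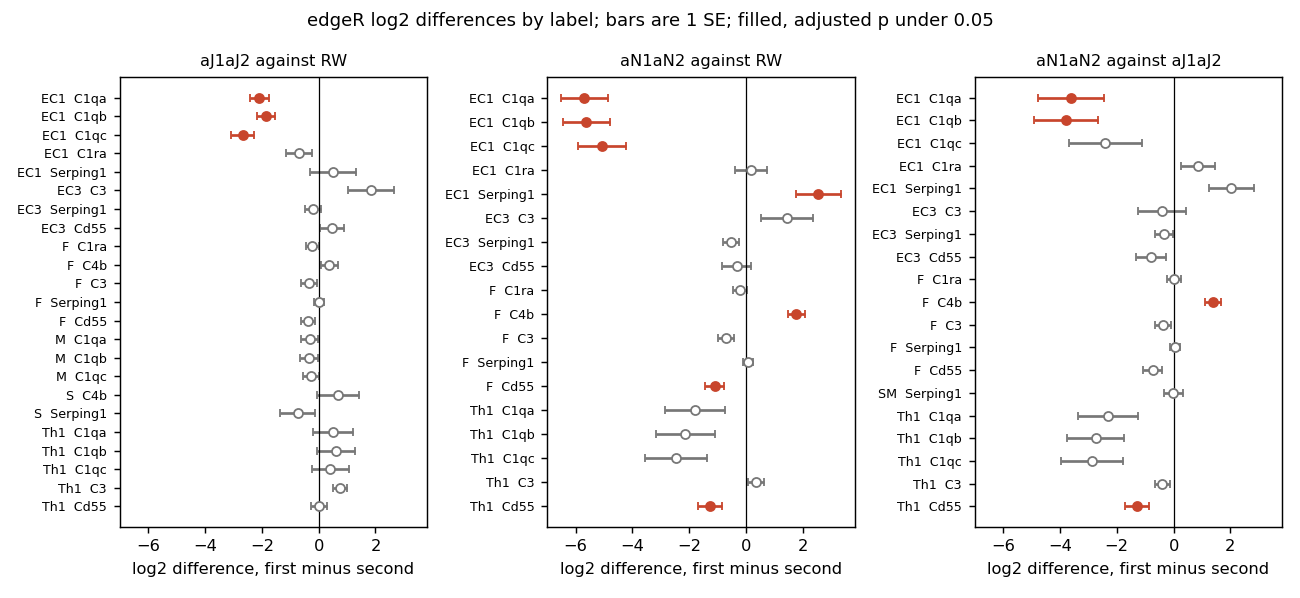
Points are edgeR log2 differences of each tested member in each label, bars are 1 standard error, and filled red points have an adjusted p under 0.05. The C1q genes in EC1 lie to the left of 0 in all 3 panels. Their size in the middle and right panels depends on a near-zero count in aN1aN2. C4b in F lies to the right of 0 at 1.76 and 1.38 in the middle and right panels, and Cd55 in F and Th1 to the left in both.

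C1ra encodes the protease C1r, the first enzyme that C1q activates, and 88.5% of its 2035 UMIs were in F. RW 1, 2 and 3 stood at 474, 615 and 793 CPM in F, aJ1aJ2 1, 3 and 4 at 681, 490 and 439, and aN1aN2 1, 2 and 3 at 569, 380 and 654. The 3 groups overlapped, and the edgeR log2 differences from RW were -0.22 ± 0.23 and -0.21 ± 0.24. Among the other labels SM was the next highest, at 90.6 CPM in the single RW library with enough SM cells.

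C4b, which encodes C4, the substrate of C1s, rose in fibroblasts after receptor blockade. F held 77.6% of its 1528 UMIs and S, labelled by Schwann cell genes, another 12.6%. In F it stood at 130, 247 and 375 CPM in RW 1, 2 and 3, at 399, 286 and 279 in aJ1aJ2 1, 3 and 4, and at 964, 555 and 953 in aN1aN2 1, 2 and 3. Every aN1aN2 library was above every other library, while RW and aJ1aJ2 overlapped. The edgeR log2 difference was 1.76 ± 0.30 against RW (adjusted p = 0.000363) and 1.38 ± 0.29 against aJ1aJ2 (adjusted p = 0.00249). For comparison, 19.8% of the 4840 genes tested in F were called against RW and 16% against aJ1aJ2. For aJ1aJ2 against RW, 0.579% of genes in F were called and C4b was not (0.38 ± 0.29, adjusted p = 0.803). Over the 15 alternatives for the contrast with RW the difference ran from 1.45 to 2.08 and was called in all 15.

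The share of F cells with a C4b UMI was 40.8% of 120 in RW and 51.2% of 121 in aN1aN2, although aN1aN2 cells were shallower, at a median of 3153 against 7665 UMIs. Thinned to 1000 UMIs the shares were 16.5, 17.1 and 31.1% in RW, aJ1aJ2 and aN1aN2. Of the F cells with a C4b UMI, 43 of 49 in RW, 95 of 100 in aJ1aJ2 and 48 of 62 in aN1aN2 also had a C3 UMI. Of all F cells, 72.5, 68.7 and 62.0% had a C3 UMI in RW, aJ1aJ2 and aN1aN2. Fibroblast markers summed to between 35533 and 45194 CPM in RW and between 32147 and 37908 CPM in aN1aN2. Of 4 mesothelial markers only Wt1 and Msln were detected in F, with Msln in RW 1 alone. They were at 0 in all 3 aN1aN2 libraries and summed to between 1 and 7 UMIs, at most 15.7 CPM, in the others. Erythroid markers summed to 2125 CPM over all F cells but ran from 95.9 to 34500 CPM between libraries. Their part in the result was not tested.

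In S, C4b stood at 60.7 and 373 CPM in RW 1 and 3 and at 365 and 241 CPM in aJ1aJ2 3 and 4. The groups overlapped and C4b was not called, but with the number range as a block the edgeR log2 difference was 2.21 ± 0.43 (adjusted p = 0.000303). Only 1 range held both groups in S, with RW 1 as its single RW library, so that value compares 1 library with 2 and assumes that it varies like the others. The aN1aN2 libraries had 19, 14 and 4 S cells, with 1682, 325 and 1692 CPM. With sums of 10 or more cells allowed, the edgeR log2 difference from RW was 2.34 ± 0.75 with an adjusted p of 0.149.

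C3, the central component that all routes cleave, was also a fibroblast transcript: F held 91.2% of its 8022 UMIs. RW 1, 2 and 3 stood at 2726, 2495 and 2833 CPM in F, a narrow range. aJ1aJ2 1, 3 and 4 were all below it, at 1806, 2199 and 2292. aN1aN2 1, 2 and 3 were widely spread, at 2570, 772 and 1467. The edgeR log2 difference was -0.34 ± 0.28 for aJ1aJ2 (adjusted p = 0.826) and -0.71 ± 0.29 for aN1aN2 (adjusted p = 0.096), so neither was called. The value for aN1aN2 turned on single libraries: it was -0.38 without aN1aN2 2 (adjusted p = 0.332) and -1.26 without aN1aN2 1 (adjusted p = 0.00258). With no filter on low counts it was -0.83 (adjusted p = 0.000751). Few cells carried much of it, since the 5 F cells highest in C3 held from 20.2 to 64.1% of the C3 UMIs of a library.

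Outside F, Th1 held 5.21% of C3 UMIs, at 14.2, 13.3 and 13.0 CPM in RW 1, 2 and 3 and 21.5, 26.8 and 19.2 in aJ1aJ2 1, 3 and 4. The groups did not overlap, but the edgeR log2 difference of 0.76 ± 0.25 had an adjusted p of 0.197. It was called in 1 of 15 alternatives. In EC3, 14 cells held 93 C3 UMIs, with 22 of 22 UMIs of RW 2 and 38 of 41 of aJ1aJ2 3 in 1 cell each. The EC3 log2 difference of 1.85 for aJ1aJ2 (adjusted p = 0.651) became -0.15 without aJ1aJ2 3 and 4.55 without RW 2. It too was called in 1 of 15 alternatives. aJ1aJ2 had 2 sums of at least 20 cells in EC2, EC3 and SM, and RW had 2 in EC2. There, leaving out 1 of the 2 leaves a single library, which is assumed to vary like the other groups.

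**Figure D4:**
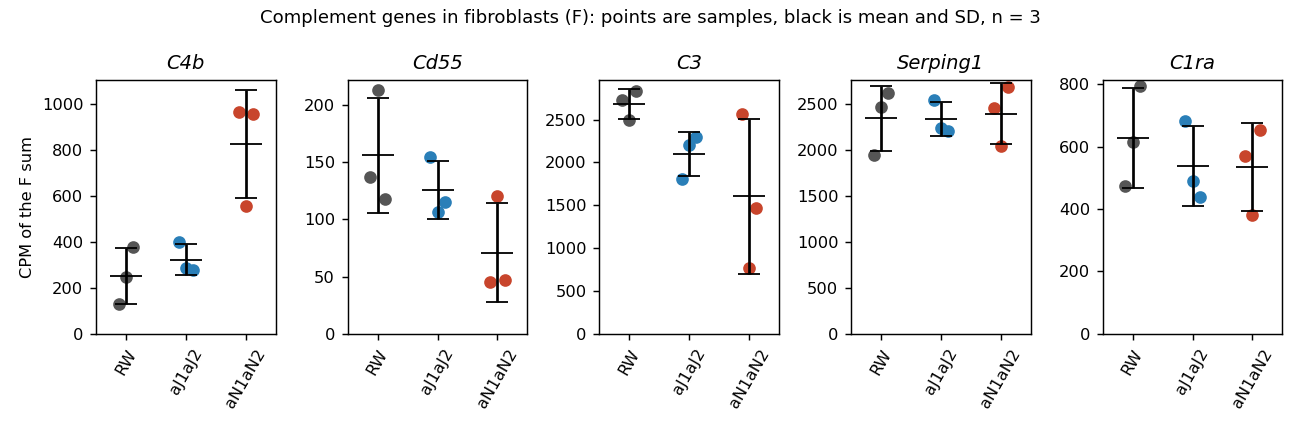
CPM of 5 complement genes in the summed F cells of each library, with points for libraries and black marks for the mean and SD of 3. C4b is at 555 to 964 CPM in aN1aN2 and at most 399 elsewhere, Cd55 is at 45.1, 121 and 46.7 CPM in aN1aN2, and Serping1 and C1ra overlap across the 3 groups.

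Cfd, which encodes factor D, the protease of the alternative route also known as adipsin, was almost confined to 2 cells. Of its 1701 UMIs, 95.9% were in 2 cells labelled Th3: 1397 in a cell of aJ1aJ2 4 and 234 in a cell of aN1aN2 3. Both carried adipocyte markers. The first had 35 UMIs of Adipoq, the adiponectin gene, 31 of Cidec and 28 of Retn, and the second had 8, 35 and 16. The 901 Th3 cells held 181 adipocyte-marker UMIs in all, and the 2 cells held 174 of them. The first also had 28 C3 UMIs and 17 C4b UMIs, of 38 and 20 in all Th3 cells of that library. The next highest cell, in EC2 of RW 1, had 23 Cfd UMIs. Cfd passed the filter on low counts in no label and was not tested.

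Serping1, which encodes C1 inhibitor, was the most evenly held of the fibroblast members. F held 86.6% of its 8848 UMIs, and 504 of 538 F cells had at least 1. RW 1, 2 and 3 stood at 1950, 2464 and 2620 CPM in F, aJ1aJ2 1, 3 and 4 at 2545, 2242 and 2212, and aN1aN2 1, 2 and 3 at 2458, 2040 and 2690. The edgeR log2 differences from RW were 0.00 ± 0.18 and 0.06 ± 0.18. SM stood at 446 CPM in RW 3 and from 362 to 814 in the other groups. EC3 stood at 176, 160 and 161 CPM in RW, and its log2 difference of -0.53 ± 0.29 after receptor blockade was not called (adjusted p = 0.343).

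Serping1 was called higher in EC1 after receptor blockade, from few counts. It stood at 0, 2.99 and 6.66 CPM in RW 1, 2 and 3, at 0, 1.90 and 11.3 in aJ1aJ2 1, 3 and 4, and at 16.0, 42.7 and 6.33 in aN1aN2 1, 2 and 3. The groups overlapped, and 11 of the 16 UMIs of aN1aN2 2 were in 1 cell. The edgeR log2 difference was 2.55 ± 0.79 (adjusted p = 0.0282), a description, since no RW library reached the cutoff. It was 1.66 without aN1aN2 2 (adjusted p = 0.349), and the call was also lost with DESeq2 (adjusted p = 0.268) and without aN1aN2 1, RW 1 or RW 2 (0.0584, 0.0593 and 0.066). Fibroblast markers in EC1 summed to 16.3, 23.9 and 68.4 CPM in RW 1, 2 and 3, to 14.7, 16.5 and 206 CPM in aJ1aJ2 1, 3 and 4, and to 235, 270 and 18.99 CPM in aN1aN2 1, 2 and 3. In each group the library highest in these markers was also highest in Serping1. Of the 6 markers, 4 were detected in aN1aN2 1, 4 in aN1aN2 2 and 2 in aN1aN2 3. Lum was at 0 in all 3 and the collagen gene Col1a1 in aN1aN2 1 and 3. The 4 aN1aN2 cells with at least 3 fibroblast-marker UMIs held 17 of its 25 Serping1 UMIs, and without such cells the gene no longer passed the filter.

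Cd55 encodes the membrane protein that dissociates C3-cleaving enzymes, and it was called lower in fibroblasts after receptor blockade. It was the least counted member, with 894 UMIs, of which 47.1% were in F, 18.7% in Th1 and 18.01% in EC3. In F it stood at 137, 213 and 118 CPM in RW 1, 2 and 3, at 155, 107 and 115 in aJ1aJ2 1, 3 and 4, and at 45.1, 121 and 46.7 in aN1aN2 1, 2 and 3. aN1aN2 2 lay inside the RW range, so the groups overlapped. The edgeR log2 difference from RW was -1.11 ± 0.35 (adjusted p = 0.0291). The call was lost without aN1aN2 1, aN1aN2 3 or RW 2, at -0.82, -0.95 and -0.78 with adjusted p-values of 0.179, 0.111 and 0.164. Only 8, 20 and 5 UMIs stood behind the 3 aN1aN2 values.

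In Th1, Cd55 stood at 9.10, 8.67 and 6.30 CPM in RW 1, 2 and 3, at 4.61, 10.3 and 7.81 in aJ1aJ2 1, 3 and 4, and at 3.83, 2.46 and 3.44 in aN1aN2 1, 2 and 3. The aN1aN2 libraries were below all others, with 7, 4 and 3 UMIs. The edgeR log2 difference was -1.27 ± 0.41 from RW (adjusted p = 0.0249) and -1.29 ± 0.42 from aJ1aJ2 (adjusted p = 0.0377), in a label where 34.4% and 22.3% of all 10627 genes were called. Both are descriptions, since no aN1aN2 library reached the cutoff of 5.48 CPM. DESeq2 did not call either (adjusted p = 0.0683 and 0.117). The call against RW was lost without aN1aN2 1, aN1aN2 2 or RW 1 (adjusted p = 0.0596, 0.119 and 0.0805), and that against aJ1aJ2 was lost without any of the 3 aN1aN2 libraries, aJ1aJ2 3 or aJ1aJ2 4. Th1 cells of aN1aN2 were shallower, at a median of 6500 UMIs against 17624, and the shares of cells with a Cd55 UMI after thinning to 1000 UMIs were 0.862% and 0.706%. In EC3 the range in RW, 28.0 to 81.9 CPM, overlapped that of aN1aN2, 12.1 to 54.2. In T1, T and NK cells, RW ran from 5.43 to 42.9 CPM.

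A wider list of 47 complement genes was examined in the same fits, of which 41 had at least 1 UMI and up to 21 could be tested in some label. After receptor blockade 13 of 43 tested pairs were called, against 19.9% of all tested pairs, 6 higher and 7 lower, with a median log2 difference of -0.03. After ligand blockade 1 of 57 was called, against 0.662%, with a median of -0.01. Between the 2 blockades 13 of 50 were called, against 12.9%, 10 higher in aN1aN2 and 3 lower. The medians over all genes of a label lay near 0, for instance at 0.01 in F and -0.01 in EC1 for receptor blockade.

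Cd59a made up 4 of the 6 higher calls. It encodes a membrane protein that stops the assembly of the lytic pore, and its level rose in EC1, EC2 and EC3. In EC1 it stood at 35.1, 33.6 and 47.5 CPM in RW 1, 2 and 3, at 32.7, 47.0 and 60.2 in aJ1aJ2 1, 3 and 4, and at 158, 168 and 241 in aN1aN2 1, 2 and 3. The aN1aN2 libraries were above all others in EC1, and the same held in EC2, EC3 and EC4. The edgeR log2 differences from RW were 2.21 ± 0.22 in EC1 (adjusted p = 1.74e-07), 1.61 ± 0.36 in EC2 (adjusted p = 0.00609), 1.70 ± 0.23 in EC3 (adjusted p = 0.000583) and 3.05 ± 0.55 in EC4 (adjusted p = 0.00018). EC2 rested on 2 RW libraries. EC4 had 5 RW UMIs, and no RW or aJ1aJ2 library there reached the cutoff of 71.8 CPM, so both EC4 calls are descriptions. The call in EC2 was lost without RW 1 (1.04, adjusted p = 0.124, with 1 RW library remaining) or aN1aN2 1 (adjusted p = 0.0517). Those against aJ1aJ2 were called in all 4 labels too, from 1.18 to 1.92. That in EC1 was called in all 14 alternatives. Those in EC2, EC3 and EC4 were each lost in 4 of 14: without aJ1aJ2 4, aN1aN2 1 or aN1aN2 2 in each, and with DESeq2 in EC2 and EC4 and without aJ1aJ2 3 in EC3, with adjusted p-values up to 0.232, 0.392 and 0.13. Without aJ1aJ2 4 the EC2 difference was 0.76, with 1 aJ1aJ2 library remaining, as in EC3 without aJ1aJ2 3 or 4. Of all genes tested in EC2, EC3 and EC4, 15.5, 5.91 and 21.1% were called against RW and 10.5, 1.27 and 17.2% against aJ1aJ2.

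C1s1, which encodes the protease C1s, and Colec12, a scavenger lectin, were also held by F, at 820 and 258 CPM in RW. Neither was called in F against RW (edgeR adjusted p = 0.404 and 0.162).

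**Figure D5:**
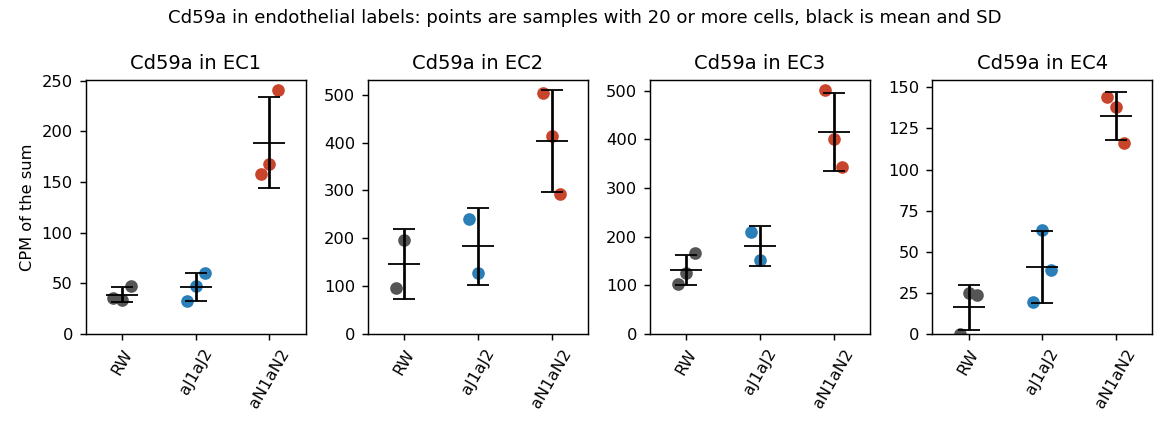
CPM of Cd59a in the 4 endothelial labels, with a point for each library of at least 20 cells and black marks for the mean and SD. In each panel all aN1aN2 points lie above all RW and aJ1aJ2 points, as for Cd59a in EC1 at 158 to 241 CPM against at most 60.2.

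Clu encodes clusterin, a soluble inhibitor of the lytic pore, and it fell after receptor blockade in EC1, EC4 and Th1, by 1.05, 1.11 and 0.64 on the log2 scale (edgeR adjusted p = 0.000727, 0.024 and 0.0095). The call in EC4 was lost with DESeq2 and without aN1aN2 1, RW 1 or RW 3 (adjusted p up to 0.222). After ligand blockade it was called in F, at -1.94 ± 0.43 (adjusted p = 0.0478), a description, since no aJ1aJ2 library reached the cutoff of 35.1 CPM. That call was absent in 8 of 15 alternatives, including those without any 1 aJ1aJ2 library, RW 2 or RW 3. Cd59b, a copy of Cd59a, fell in Th1 by 1.11 (adjusted p = 0.000911), from between 34.4 and 47.6 CPM in RW to between 16.6 and 28.6 CPM in aN1aN2. Cr1l, a regulator known as Crry, fell in EC1 by 0.45 (adjusted p = 0.0464). The call did not hold under 10 of 15 alternatives, including DESeq2 and the omission of any 1 aN1aN2 library, RW 2 or RW 3 (adjusted p up to 0.288). Cd93, a C1q-receptor-like endothelial protein, fell in EC2 by 0.68 (adjusted p = 0.0444) against RW. That call did not hold under 9 of 15 alternatives, including DESeq2 and the omission of any 1 aN1aN2 library or RW 2 (adjusted p up to 0.276). Against aJ1aJ2 it rose in EC1 by 0.59 (adjusted p = 0.00611), a call made in all 14 alternatives. In SM it was called at 2.04 (adjusted p = 0.0429), where 4.05% of genes were called, a description, since no aJ1aJ2 library reached the cutoff. That value ran from 0.96 to 4.03 and the call did not hold under 10 of 14 alternatives, including DESeq2 and the omission of aJ1aJ2 4, aN1aN2 1 or aN1aN2 2 (adjusted p up to 0.547). Colec12 was higher in EC1 than in aJ1aJ2 by 1.77 (adjusted p = 0.0217), a description, since no aJ1aJ2 library reached the cutoff. The call was lost without aJ1aJ2 3, aN1aN2 1 or aN1aN2 3 (adjusted p up to 0.148). C1qbp, which encodes a mitochondrial protein first found by its binding to C1q, rose in F by 0.96 against aJ1aJ2 (adjusted p = 0.018), a call lost without aJ1aJ2 3, aN1aN2 2 or aN1aN2 3 and with no filter (adjusted p up to 0.141). C1s1, the partner protease of C1r, was 9.50 times lower in EC3 of aN1aN2 than of RW by counts, 2 against 61 UMIs (counting interval 2.52 to 80.2, edgeR adjusted p = 0.0261). It is a description, since no aN1aN2 library reached the cutoff, and the call did not hold under 7 of 13 alternatives, including DESeq2 and the omission of any 1 aN1aN2 library, RW 1 or RW 2 (adjusted p up to 0.118).

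In M, Cfp, properdin, which stabilises the alternative C3-cleaving enzyme, stood at 269 ± 176 CPM in RW, and Itgb2, the shared chain of the complement receptor integrins, at 166 ± 41.0 (SD, n = 3). Itgb2 stood in T1 at 184 ± 45.7 CPM, with overlapping ranges. None of the 9 listed genes tested in M was called for aJ1aJ2 against RW by edgeR, none had an unadjusted p under 0.05, and DESeq2 called no gene there. In EC1 of RW, Cd93 stood at 567 ± 116 CPM, Clu at 213 ± 35.9 and Cr1l at 158 ± 16.3.

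The genes most like each member across the 12 labels were found by Pearson's r of the mean log2(CPM + 1) over RW libraries, among 13190 genes with at least 10 CPM in some label. The 12 labels share the same libraries and differ in depth, so these values are descriptions. For C1qa they were Abcc3 (0.984), C1qc (0.9502) and Ms4a7 (0.9501), for C1qb Ms4a14 (0.979), C1qc (0.976) and Wfdc17 (0.976), and for C1qc Ms4a7 (0.992), Wfdc17 (0.988) and Mpeg1 (0.982). For C1ra they were Naalad2 (0.983), Cygb (0.963) and Col6a3 (0.951), for C3 Tnfrsf19 (0.948), Dact2 (0.928) and Ggt5 (0.924), and for C4b Col14a1 (0.983), Ildr2 (0.975) and C2 (0.971), the last being the protease that pairs with C4. For Serping1 they were Bgn (0.973), Vstm4 (0.972) and Col6a1 (0.969), and for Cd55 Irs2 (0.924), 1500009L16Rik (0.919) and Adcy3 (0.917). For Cfd they were Dnah2os (0.981), Gm3558 (0.938) and Gm16181 (0.930), a ranking that rests on the 29 UMIs of EC2 in RW 1.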

How the data were processed

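Single-cell RNA was counted in 9 thyroid libraries. The deposited table holds whole-number UMI counts per gene and cell, and a deposited annotation gives each cell's label and library. An unquoted comma shifted the fields of 2619 of its lines, those of all aN1aN2 cells, whose labels were read by position from the line end. The submitters' processing notes name Cell Ranger and GRCm38, and no version is given. All 10186 cells were used and none was filtered. Counts were summed per library and label. Per label, sums of at least 20 cells were fitted with edgeR 4.0.16 in R 4.3.3 (TMM, filterByExpr, quasi-likelihood test, Benjamini-Hochberg adjustment over all genes of the label) for all 3 groups together, and a contrast was tested where both groups had at least 2 sums. The scripts were tested on simulated data. p-values measure spread between pools of mice. Chi-square per degree of freedom between libraries of a group was at least 11.1, so none was a duplicate. DESeq2 1.42.0 served as an alternative. Named genes are the 9 members, the listed complement genes called or among the 3 highest in M, F or EC1, and the 3 genes most like each member. The members, lists and motifs were chosen with earlier results of these data known. Results for 1 listed gene are not reported here.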

Additional observations from a re-analysis of the deposited data

Results flagged for a closer look

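C3 moved in opposite directions in 2 labels under the same contrast, with every library of aJ1aJ2 on one side of every RW library in each. In F the mean was lower in aJ1aJ2 by a difference of -585.5 CPM (2099 ± 258 against 2685 ± 173, SD, n = 3 each). In Th1 it was higher by 8.979 CPM (22.5 ± 3.86 against 13.5 ± 0.628). Neither was called by edgeR in the main fit, with adjusted p-values of 0.826 and 0.197, and that in Th1 was called in 1 of 15 alternatives. The difference between the labels was not tested. F lay at 28897 to 37603 CPM of summed fibroblast markers in aJ1aJ2 and at 35533 to 45194 in RW. In Th1 these markers stood at 9.73, 86.6 and 7.21 CPM in aJ1aJ2 1, 3 and 4, against at most 14.0 in RW. Their part in the result was not tested.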

How the results depend on the processing

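For the settings below, the numbers of pairs tested and the shares of all pairs called are not given here, so their counts of calls are descriptions. With no filter on low counts the number of called pairs of a member and a label was 10 for aJ1aJ2 against RW, 14 for aN1aN2 against RW and 10 for aN1aN2 against aJ1aJ2, in place of 3, 7 and 4, and that of the wider list for aJ1aJ2 against RW was 3 in place of 1. Without cells of other labels with macrophage markers, chosen after seeing the data, the first was 0. With only the 2 groups compared, aN1aN2 against aJ1aJ2 called 1 member pair. For the wider list aJ1aJ2 against RW gave 0 with DESeq2, with 2 groups only and with cells of at least 1000 UMIs, and 2 with the number range as a block, while aN1aN2 against aJ1aJ2 gave 8 with DESeq2 in place of 13. The cause was not tested, except that fewer genes pass where counts are removed. With the replicate block (numbers 1 and 2 of RW and aN1aN2) 11 member pairs were called, among them C1qc in Th1 (-7.62, adjusted p = 1.25e-08 by edgeR). RW and aN1aN2 share only a number, and the correlation of their deviations ran from -0.328 to 0.0969 over 9 labels.

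Leaving out 1 library at a time gave from 2 to 4, from 5 to 10 and from 2 to 7 called member pairs in the 3 contrasts, and from 0 to 3, from 10 to 12 and from 5 to 12 for the wider list. The M share difference then ran from -1.29 to -0.122 percentage points for aJ1aJ2 against RW, from -4.80 to -3.998 for aN1aN2 against RW and from -4.20 to -3.03 for aN1aN2 against aJ1aJ2. Among cells with at least 1000 UMIs the first was 0.228, the opposite sign of -0.536. C3 in EC3 for aJ1aJ2 against RW was -0.15 without aJ1aJ2 3 and 4.55 without RW 2. No other tested direction reversed. Of the alternative values of single genes, 608 kept direction and side of the threshold, 110 lost a call and 24 gained one. C1q outside M and Cd55 in aN1aN2 rest on few UMIs, which limits their precision. The number range as a block also called C4b in S for aJ1aJ2 against RW, at 2.21, with 1 RW library in the range that holds both groups.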

Other observations

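Within M, 57 of 378 cells had no C1q UMI although their median depth, 6191 UMIs, was above the 1311 of the 273 cells with at least 5. Of the 57, 45.6% had a UMI of a dendritic cell marker (Flt3, Xcr1, Clec9a or Cd209a), against 6.96% of the 273, and 68.4% had a UMI of a macrophage marker, against 91.6%. These marker shares were not thinned to a common depth, and a marker is found more readily in deeper cells. They were 3 of 53, 13 of 77 and 2 of 58 M cells in RW 1, 2 and 3, 5 of 36, 23 of 72 and 6 of 60 in aJ1aJ2 1, 3 and 4, and 2 of 9, 1 of 3 and 2 of 10 in aN1aN2 1, 2 and 3. RW 2 and aJ1aJ2 3 had the lowest summed C1q levels in M of their groups, 9075 and 7800 CPM, and 272 and 285 thymocyte-labelled (T2) cells, against at most 39 elsewhere. Without M cells that had a dendritic-marker UMI those levels were 13618 and 11440 CPM, beside 15864 and 18433 in the other RW libraries and 18419 and 12782 in the other aJ1aJ2 libraries. In aN1aN2 1, 2 and 3 the levels were 15821, 12073 and 9638 CPM, and 19714, 12073 and 13007 CPM without such cells. Whether that share sets the C1q level was not tested.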
